A study of Homo sapiens with 9 samples.

Results

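The HAND2 locus was taken as every region of the counts table whose centre lies within the gene spans of HAND2 or of its divergent long non-coding RNA HAND2-AS1, or within 200 kb of them. It held 29 of the 148797 regions. The spans are chromosome 4, 173526091 to 173530229 for HAND2 and 173528600 to 173591255 for HAND2-AS1 (GRCh38, RefSeq). Regions were taken by position, around a locus that was itself picked with earlier results of these data known. The assay was ATAC-seq, which reads accessible chromatin through the cuts of the transposase Tn5. The cells were SK-N-BE(2)c, an established line from a human neuroblastoma. All cells received an antisense oligonucleotide (ASO) at 100 nM by lipid transfection and were collected 48 h later. NCA is the control oligonucleotide, and ASO2 and ASO10 are both directed against NESPR, a long non-coding RNA. Each of the 3 groups had 3 libraries, with 7293565 to 10948569 counts per library. All are from 1 cell line, and nothing in the labels says whether the 3 libraries of a group came from separate cultures. The p-values therefore set group differences against a spread between libraries, estimated over all groups together, that may be technical.

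HAND2 encodes a basic helix-loop-helix transcription factor that binds E-box DNA. It is needed for the development of sympathetic neurons, the lineage from which neuroblastoma arises, and also acts in the heart and the limb. In neuroblastoma cells of the adrenergic type it belongs to a set of factors, with GATA and homeodomain proteins, that maintain each other's expression and that of the noradrenaline-producing enzymes. HAND2-AS1 lies on the opposite strand. From its start at 173530458 it is transcribed away from HAND2, while its other RefSeq start, at 173528600, lies within HAND2.

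HAND2 is read from the minus strand, so "upstream" below means towards higher coordinates, into and beyond HAND2-AS1. RefSeq gives a HAND2-AS1 start 229 bases upstream of the HAND2 start, so that 272 of the 300 bases of the RefSeq promoter windows of the 2 genes are the same DNA read in opposite directions. The 250 bases before the HAND2 start (chr4:173530230-173530479, minus strand, GRCh38.p14, from RefSeq) are shown because HAND2 starts beside them. The HAND2-AS1 start at 173530458 lies within them. Capitals mark matches to 3 motifs: the E-box CANNTG, the GATA motif, written as AGATAA with its variants TGATAA and AGATAG and also as TGATAG, and the homeodomain core TAATTA. Each was searched on both strands.

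HAND2 promoter: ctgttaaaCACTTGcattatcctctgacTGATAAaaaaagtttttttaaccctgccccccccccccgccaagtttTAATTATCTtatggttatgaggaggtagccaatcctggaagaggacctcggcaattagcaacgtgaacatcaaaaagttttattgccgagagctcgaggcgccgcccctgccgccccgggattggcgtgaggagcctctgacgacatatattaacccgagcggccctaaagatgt

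The capitals are, in order, an E-box that begins 242 bases before the start, a GATA match at 222 bases, and a TAATTA core at 175 bases that overlaps a second GATA match at 172 bases. In RefSeq promoter windows of 300 bases, 68.7% of 35116 held an E-box match, 25.0% a GATA match and 4.84% a TAATTA match. The promoter region of the counts table ends at 173530387, so it covered 158 of the printed bases, and all 4 matches lie in the other 92. A match is a description of letters and shows no binding.

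The 29 regions spanned widths of 149 to 2558 bases and mean levels of 0.622 to 69.6 CPM, the count scaled to the library's TMM-adjusted total over tested regions. One region covers the promoter, 7 lie elsewhere within HAND2-AS1, and 21 are distal to both genes. Windows of the same length, 465.165 kb, centred on 19970 protein-coding genes held a median of 31.0 regions (quartiles 19.0 and 41.0), so the number at HAND2 was near the middle. The signal was concentrated: 3 regions held 51.8% of the summed CPM of the locus and 8 held 77.5%. The 2 strongest lie at other genes towards the downstream edge. The first, at 69.6 CPM, covers an end of HMGB2, which encodes a high-mobility-group chromatin protein. The second, at 53.6 CPM, covers the start of SAP30, which encodes a subunit of the SIN3 histone deacetylase complex. The longest stretch without a region, 74.0 kb, lies upstream, across and beyond the far end of HAND2-AS1. At the edges of the window, the last region inside on the lower side lay 191.4 kb from the gene spans with 69.6 CPM and the first outside 207.1 kb away with 3.40 CPM. On the upper side these were 175.1 kb with 15.5 CPM and 202.7 kb with 3.33 CPM.

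**Figure D1:**
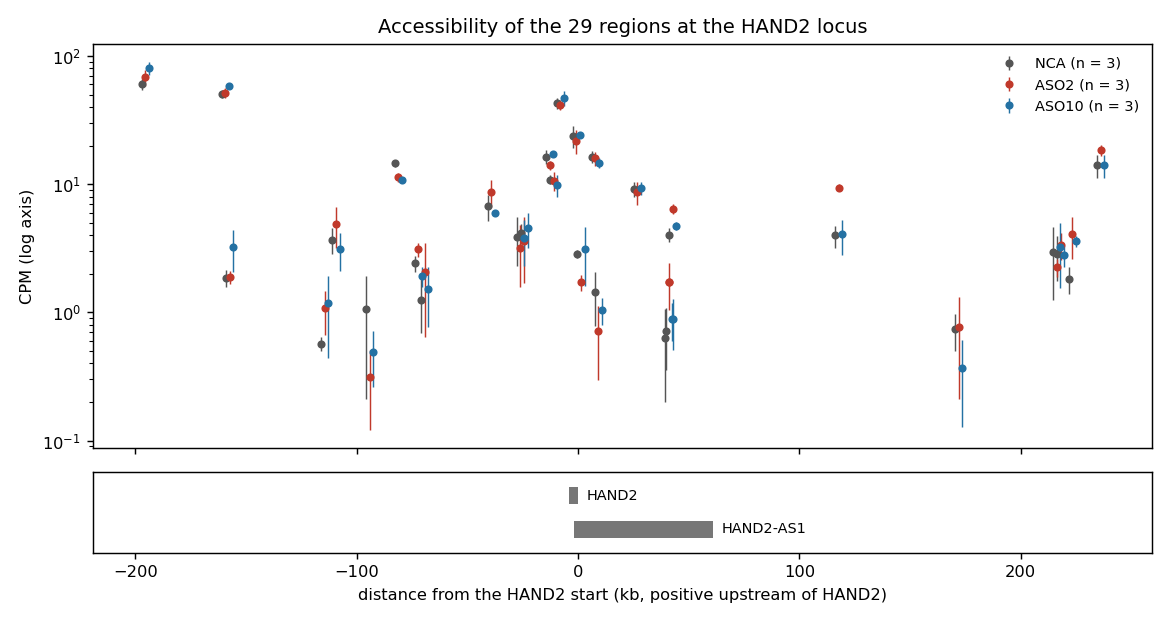
Mean CPM (log axis) of the 29 regions against distance from the HAND2 start in kb, with points for NCA, ASO2 and ASO10 set slightly apart and bars for the SD of 3 libraries; gene spans are drawn below. Levels near the start reach 23.3 CPM at the promoter and 43.9 CPM at 7.93 kb downstream, and at 118 kb upstream the ASO2 mean of 9.40 CPM stands above 3.98 in NCA and 4.05 under ASO10.

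The promoter region (173528593 to 173530387) covers the HAND2 start and the HAND2-AS1 start at 173528600, and stops short of the other HAND2-AS1 start at 173530458. The NCA libraries had 23.4, 19.2 and 28.5 CPM, the ASO2 libraries 23.01, 25.9 and 16.8, and the ASO10 libraries 23.6, 23.6 and 25.9. The 3 groups overlapped throughout, and the lowest and the highest library were an ASO2 and an NCA library. The group means were 23.7 ± 4.66, 21.9 ± 4.64 and 24.4 ± 1.36 CPM (SD, n = 3 each). In an edgeR quasi-likelihood fit over 119417 regions, with p-values adjusted over all of them, the log2 fold change was -0.13 ± 0.14 (SE) for ASO2 against NCA (adjusted p = 0.725), 0.035 ± 0.14 for ASO10 against NCA (adjusted p = 0.960) and -0.16 ± 0.14 for ASO2 against ASO10 (adjusted p = 0.655). The 95% intervals ran from -0.40 to 0.15, from -0.24 to 0.31 and from -0.44 to 0.12 on the log2 scale. No interval excluded 0, and none reached a change of 1 on that scale in either direction. Among 11698 protein-coding genes with a region within 1 kb of a RefSeq start, the HAND2 promoter stood at the 65.1th percentile by CPM and, per kb of region, at the 44.4th, with 13.0 CPM per kb against a median of 14.2.

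The region with the highest level that is at no annotated gene end lies 7.93 kb downstream of the start (173521388 to 173523212), 2.88 kb past the lower end of HAND2 and outside any annotated gene. CPM was 44.1, 38.3 and 46.1 in the NCA libraries, 38.3, 45.7 and 41.2 in the ASO2 libraries, and 54.5, 42.0 and 44.8 in the ASO10 libraries. Per kb of region it exceeded the promoter in 9 of 9 libraries, by 1.59-fold to 2.41-fold. The groups overlapped in each comparison. Its log2 fold changes were -0.035 ± 0.12 (SE) for ASO2, 0.14 ± 0.12 for ASO10 and -0.17 ± 0.12 between them (edgeR adjusted p = 0.925, 0.740 and 0.531), with 95% intervals from -0.27 to 0.20, -0.094 to 0.37 and -0.40 to 0.058.

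Further strong regions lie on either side. The region 12.8 kb downstream, at the start of an uncharacterised lncRNA within the SCRG1 span, had group means of 16.4 ± 2.06, 14.1 ± 1.11 and 17.2 ± 0.678 CPM in NCA, ASO2 and ASO10 (SD, n = 3 each). The region 7.71 kb upstream, within HAND2-AS1, had 16.4 ± 1.65, 15.9 ± 2.07 and 14.7 ± 1.29 CPM. At 12.8 kb all ASO2 libraries lay below all ASO10 libraries. Neither region passed the threshold in any of the 3 comparisons (edgeR adjusted p from 0.398 to 0.942). Over the 7 regions within HAND2-AS1 other than the promoter, edgeR adjusted p ran from 0.171 to 0.988 in the 3 comparisons, and the summed CPM was 35.2 ± 4.05, 36.9 ± 2.78 and 34.7 ± 2.25 with NCA, ASO2 and ASO10 (SD, n = 3 each).

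Over the locus, 26 of the 29 regions passed the count filter. Under ASO2, 2 of the 26 rose against NCA, where 5.6% of all tested regions were called, 4.79% higher and 0.808% lower. Under ASO10, 1 rose against NCA, where the shares were 1.09%, 0.876% and 0.21%. Between ASO2 and ASO10, 1 was higher under ASO2, where they were 3.23%, 2.54% and 0.682%. Counts of 1 or 2 in 26 are no result about the locus as a whole. None was called lower in edgeR (0 in each comparison). At an unadjusted p under 0.05, 1, 1 and 2 were lower and 4, 2 and 4 higher. Over all tested regions 16.5%, 10.6% and 14.6% were under this p in either direction. DESeq2 also called 0 lower, but gave an adjusted p to only 23, 15 and 22 of the 26. The median log2 fold change was 0.017, 0.053 and 0.084 in the same order, against -0.024, -0.0067 and -0.0021 over all tested regions. ASO2 and ASO10 were set against the same NCA libraries, so their values are not independent of each other.

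**Figure D2:**
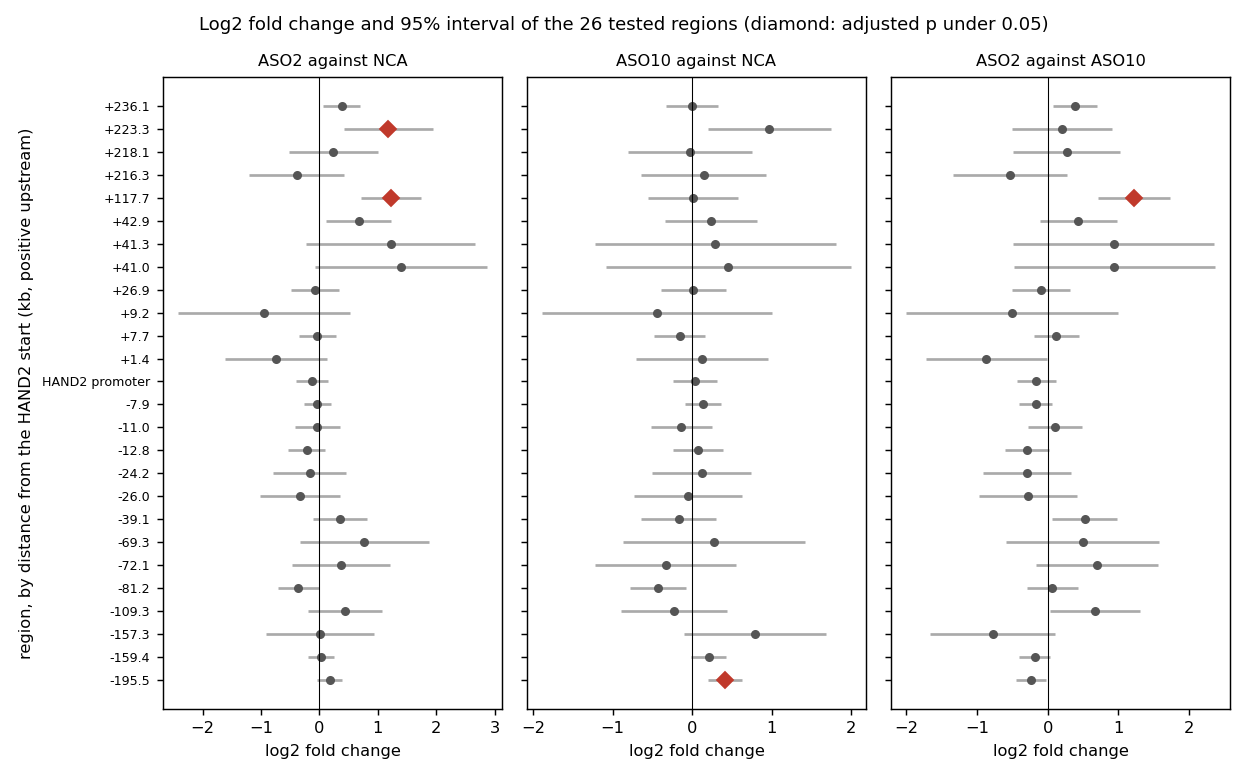
Log2 fold change (points) with 95% interval (lines) for the 26 tested regions, ordered by distance from the HAND2 start, in each of the 3 comparisons, with diamonds for an adjusted p under 0.05. The promoter row spans 0 in every panel, and the region 118 kb upstream is called against NCA and against ASO10 under ASO2, at 1.23 and 1.22.

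The clearest difference at the locus was a distal region 118 kb upstream of the HAND2 start (173647585 to 173648304), 720 bases wide and in no annotated gene. CPM was 3.09, 4.54 and 4.31 in the NCA libraries (24, 36 and 38 counts), 9.40, 9.98 and 8.81 in the ASO2 libraries (67, 93 and 96 counts), and 4.22, 2.73 and 5.21 in the ASO10 libraries (36, 24 and 40 counts). All 3 ASO2 libraries lay above all 6 others, and ASO10 overlapped NCA. The log2 fold change was 1.23 ± 0.26 (SE) for ASO2 against NCA (edgeR adjusted p = 0.000223), which is 2.35-fold, and 1.22 ± 0.26 for ASO2 against ASO10 (edgeR adjusted p = 0.000575). For ASO10 against NCA it was 0.013 ± 0.29 (edgeR adjusted p = 0.993), with a 95% interval from -0.55 to 0.58. Of all tested regions 3.49% had a larger log2 fold change under ASO2. This region is among the tested regions over 1 kb from any RefSeq start used here. Of those, 5.30% were called higher under ASO2 and 0.735% under ASO10, against 0.934% and 1.93% of regions within 1 kb of a start. Starts were used for 15812 of 19970 protein-coding genes, so the first set may also hold regions at gene starts.

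A second distal region, 223 kb upstream (173753266 to 173753793), rose under ASO2. CPM was 1.417, 1.76 and 2.27 in the NCA libraries (11, 14 and 20 counts), 2.53, 5.47 and 4.31 in the ASO2 libraries (18, 51 and 47 counts), and 3.99, 3.41 and 3.39 in the ASO10 libraries (34, 30 and 26 counts). All 6 libraries with an oligonucleotide against NESPR lay above the 3 NCA libraries. The log2 fold change was 1.18 ± 0.39 (SE) for ASO2 (edgeR adjusted p = 0.0450) and 0.97 ± 0.39 for ASO10 (edgeR adjusted p = 0.284), and 0.21 ± 0.36 between them (edgeR adjusted p = 0.852). The call under ASO2 sat at the threshold: it was lost in 13 of 16 alternatives, with an adjusted p from 0.0209 to 0.335 over all 16. The log2 fold change stayed between 0.92 and 1.417 over the 16. It lay between 1.12 and 1.19 in the 7 that did not leave out libraries 1 at a time. The call was lost on leaving out any single library other than ASO2 replicate 1.

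The region at HMGB2, 196 kb downstream of the HAND2 start (173333859 to 173335593), rose under ASO10. CPM was 60.3, 54.5 and 66.1 in the NCA libraries, 70.2, 77.2 and 57.4 in the ASO2 libraries, and 84.3, 70.0 and 86.6 in the ASO10 libraries. The 3 ASO10 libraries lay above the 3 NCA libraries, while ASO2 overlapped both groups. The log2 fold change was 0.41 ± 0.11 (SE) for ASO10 (edgeR adjusted p = 0.0207), 0.18 ± 0.11 for ASO2 (edgeR adjusted p = 0.430) and -0.24 ± 0.11 for ASO2 against ASO10 (edgeR adjusted p = 0.253). The call was lost with loess offsets, which take out abundance-dependent trends between libraries (0.23, adjusted p = 0.285), and with a replicate block (0.41, adjusted p = 0.053). It was also lost without NCA replicate 1, NCA replicate 2, ASO10 replicate 1 or ASO10 replicate 3 (0.41, 0.34, 0.38 and 0.35). Over its 16 alternatives the adjusted p ran from 0.00757 to 0.285. The neighbouring region at SAP30 had 50.7 ± 3.92, 51.6 ± 4.70 and 58.6 ± 2.95 CPM in NCA, ASO2 and ASO10 (SD, n = 3 each). Its ASO10 libraries too lay above the NCA libraries, but its log2 fold change of 0.21 ± 0.11 (SE) did not pass (edgeR adjusted p = 0.513). Over the whole table, regions within 1 kb of a RefSeq start, among them the one at SAP30, had a median log2 fold change of 0.082 under ASO10, and all others -0.026. The HMGB2 region is counted with the others, since no start entry for HMGB2 was used here. The part of these medians in the values at SAP30 and HMGB2 was not tested.

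**Figure D3:**
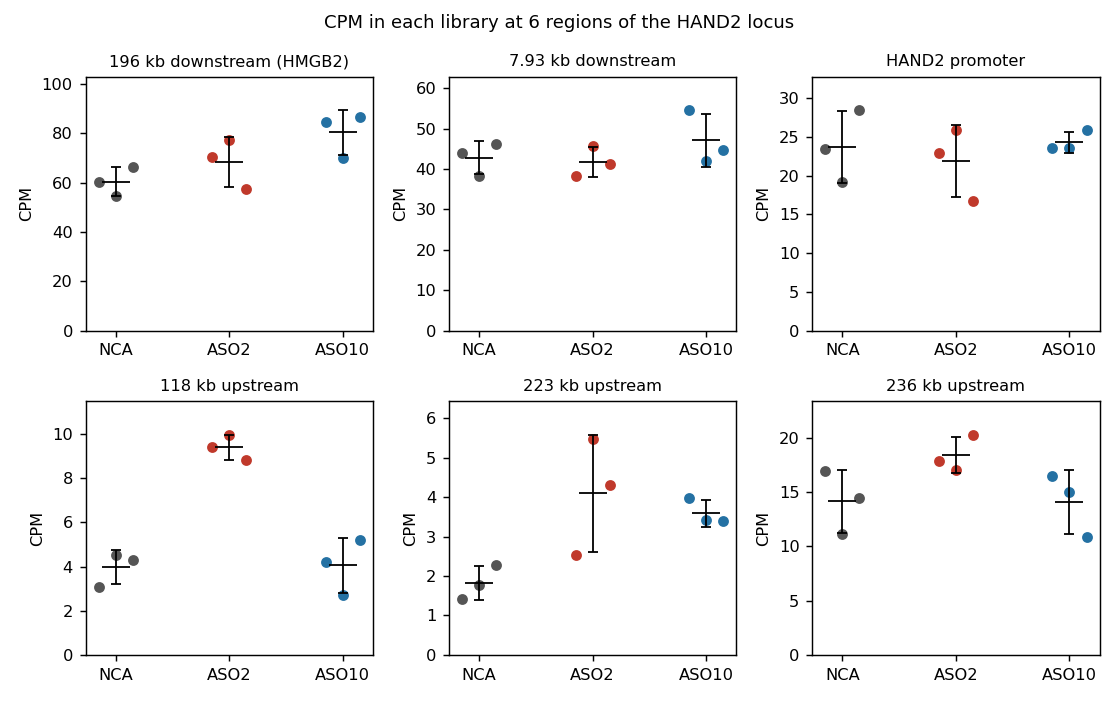
CPM of each library (points) with the group mean and SD (bars, n = 3) at 6 regions, on axes that start at 0. Of these 6 regions, the ASO2 libraries stand above all others only at 118 kb and 236 kb upstream, and the 3 groups overlap at the promoter.

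Some regions had groups that did not overlap. Of the 26 tested regions, 8 had ASO2 and NCA libraries that did not overlap, with ASO2 higher in 6 and lower in 2. Over all tested regions 20.5% were separated in this way, 11.9% upwards and 8.57% downwards. All 6 lie upstream of HAND2, from 41.0 to 236 kb, among 12 tested regions there, and 0 of the 14 tested regions on the other side, the promoter included, were separated upwards. Under ASO10 against NCA, separation upwards was found in 2 of 12 upstream and 2 of 14 downstream, and for ASO2 against ASO10 in 5 of 12 and 2 of 14. This grouping by side was made after the values were seen and carries no test. Under ASO10 the count was 5 of 26, 4 above NCA and 1 below, where the shares over all tested regions were 15.7% in all, 8.51% upwards and 7.15% downwards. Between ASO2 and ASO10 it was 8 of 26, with ASO2 higher in 7 and lower in 1, where the shares were 19.3%, 11.0% and 8.31%.

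Of these 6 upstream regions, 3 lie together in HAND2-AS1, from 41.0 to 42.9 kb upstream. The 2 weak ones are 32 bases apart and may count 1 element. The first had 3, 3 and 10 counts in NCA, 12, 16 and 19 under ASO2, and 5, 8 and 9 under ASO10. The second had 4, 4 and 10 counts in NCA, 18, 12 and 15 under ASO2, and 9, 4 and 9 under ASO10. The strongest, 42.9 kb upstream (173572628 to 173573618), had CPM values of 3.99, 3.53 and 4.54 with NCA, 6.59, 5.79 and 6.88 with ASO2, and 5.16, 4.55 and 4.56 with ASO10. Here every ASO2 library exceeded every other library. Under ASO2 the log2 fold changes of the 3 regions were 1.40 ± 0.75, 1.22 ± 0.74 and 0.67 ± 0.28 (SE), with edgeR adjusted p-values of 0.340, 0.420 and 0.171, so none passed.

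The last of the 6, at the upper edge of the window and 236 kb from the HAND2 start (173765969 to 173766714), was among the stronger distal regions. CPM was 16.9, 11.1 and 14.4 in the NCA libraries, 17.8, 17.1 and 20.3 in the ASO2 libraries, and 16.4, 15.02 and 10.8 in the ASO10 libraries. The ASO2 libraries were the 3 highest, by a narrow margin over the highest NCA library. Its log2 fold change was 0.38 ± 0.16 (SE) for ASO2 against NCA (edgeR adjusted p = 0.167) and 0.38 ± 0.16 for ASO2 against ASO10 (edgeR adjusted p = 0.202), and neither passed.

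Among regions with lower values, the one 81.2 kb downstream (173448156 to 173449835), inside SCRG1, had CPM values of 14.9, 15.1 and 13.6 with NCA, 12.1, 10.2 and 11.7 with ASO2, and 10.4, 10.8 and 11.2 with ASO10. All 6 libraries with an oligonucleotide against NESPR lay below the 3 NCA libraries. The log2 fold changes were -0.36 ± 0.18 (SE) for ASO2 and -0.43 ± 0.18 for ASO10, and neither passed (edgeR adjusted p = 0.279 and 0.318). The small region 1.37 kb upstream of the HAND2 start, beside the promoter, had 2.96, 3.03 and 2.61 CPM in NCA and 1.97, 1.72 and 1.47 under ASO2, but 4.81, 1.93 and 2.60 under ASO10. Its ASO2 log2 fold change of -0.75 ± 0.44 (SE) did not pass (edgeR adjusted p = 0.407). A region 39.1 kb downstream, also inside SCRG1, had 6.72 ± 1.58, 8.73 ± 2.08 and 5.99 ± 0.333 CPM in NCA, ASO2 and ASO10 (SD, n = 3 each). All its ASO2 libraries lay above all its ASO10 libraries, with a log2 fold change of 0.52 ± 0.24 (SE) that did not pass (edgeR adjusted p = 0.251).

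Summed over the 29 regions, the locus had 306.7 ± 23.9, 323.5 ± 24.7 and 336.9 ± 14.2 CPM with NCA, ASO2 and ASO10 (SD, n = 3 each), and the groups overlapped. Across the 9 libraries, the region whose log2 CPM followed the promoter most closely was the one 26.9 kb upstream within HAND2-AS1 (Pearson r = 0.835), with group means of 9.13 ± 1.25, 8.67 ± 1.80 and 9.27 ± 1.06 CPM. The next 4 were the HMGB2 region (r = 0.639) and the regions 26.01, 11.0 and 7.93 kb downstream (r = 0.582, 0.549 and 0.477). These are descriptions over 9 libraries that share their scaling, and the regions at 118 and 223 kb upstream were not among the 5.

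HAND2 was set beside other genes of the adrenergic circuit by the strongest region within 1 kb of either gene end. A region was found for 13 of 16 genes. The other 3, EYA1, KLF7 and TH, had none in the table. HAND2 ranked 4th by CPM and 8th per kb of region. PHOX2A, a homeodomain factor of noradrenergic neurons, was highest at 33.5 CPM, followed by ISL1, a LIM-homeodomain factor, at 26.9 and TBX2, a T-box factor, at 26.2. GATA2 and GATA3, zinc-finger factors of the same circuit, had 10.2 and 4.84 CPM, and DBH, which makes noradrenaline from dopamine, had 19.0. Of 4 heart markers 2 had a region, at 0.936 and 2.99 CPM, and 1 of 2 limb markers had one, at 1.87 CPM. Mesenchymal genes, which mark the other neuroblastoma cell state, had a region for 8 of 15, with a median of 16.1 CPM against 19.0 for the adrenergic list. The ranges overlapped, from 1.71 to 66.7 CPM for mesenchymal and from 2.36 to 33.5 for adrenergic genes. The highest of both lists was the mesenchymal gene FOSL2.

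Of the 13 adrenergic regions, 0 were called under ASO2 by edgeR (3 at an unadjusted p under 0.05, and 0 by DESeq2). Under ASO10 1 rose (2 in either direction at an unadjusted p under 0.05, and 1 called by DESeq2, which gave 11 an adjusted p). Between ASO2 and ASO10 0 differed (0 at an unadjusted p under 0.05, and 0 by DESeq2). Over all tested regions 5.6%, 1.09% and 3.23% were called in these comparisons. The shares under an unadjusted p of 0.05 were 16.5%, 10.6% and 14.6%. With 13 regions these counts are no result about the list. The region that rose was at TBX2, with 21.8 ± 2.45 CPM in NCA and 30.5 ± 0.244 under ASO10 (SD, n = 3 each). Its log2 fold change was 0.48 ± 0.14 (SE), with an edgeR adjusted p of 0.0456, just under the threshold. This call was not followed over the alternatives. PHOX2A went the other way under ASO10, from 36.9 ± 2.86 CPM in NCA to 29.4 ± 0.253 (SD, n = 3 each). All its ASO10 libraries lay below all its NCA libraries. Its log2 fold change of -0.33 ± 0.13 (SE) did not pass (edgeR adjusted p = 0.241). Median log2 fold changes over the 13 were -0.11 under ASO2, 0.035 under ASO10 and -0.095 between them. HAND2 is itself 1 of the 13, at -0.13, 0.035 and -0.16, and the ASO10 median is its own value. Its nearness to these medians is therefore no result. The related gene HAND1 had 22.2, 16.9 and 20.1 CPM in NCA, ASO2 and ASO10. All its ASO2 libraries lay below all its NCA libraries, but its log2 fold change of -0.40 ± 0.15 (SE) under ASO2 did not pass (edgeR adjusted p = 0.105). Of the 8 mesenchymal regions, edgeR called 1, 0 and 1 in the 3 comparisons, and DESeq2 1, 1 and 1. The edgeR calls were at YAP1, lower under ASO2 than in NCA (-0.85 ± 0.21 SE, edgeR adjusted p = 0.00295). It was also lower under ASO2 than under ASO10 (-0.72 ± 0.22, edgeR adjusted p = 0.0333). With 8 regions these counts too are no result about the list.

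**Figure D4:**
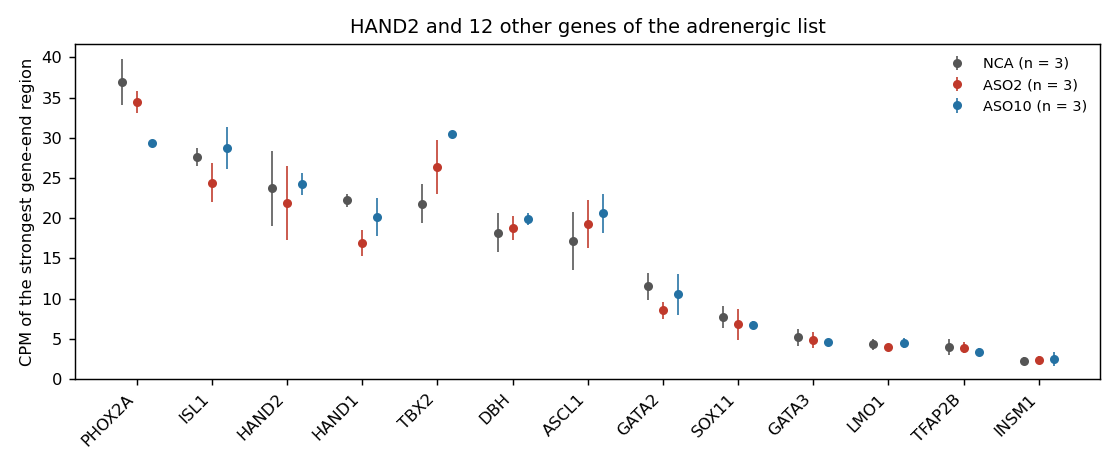
Mean CPM with SD (n = 3) of the strongest gene-end region of HAND2 and 12 other adrenergic genes in NCA, ASO2 and ASO10, ordered by the NCA mean. HAND2 follows PHOX2A and ISL1 with overlapping groups, and TBX2 rises from 21.8 in NCA to 30.5 under ASO10, a call just under the threshold.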

How the data were processed

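The authors deposited whole-number counts for 148797 regions in 9 ATAC-seq libraries, with no normalization, as the values show. Per the submitters' processing notes, FastQC, Bowtie2 2.2.6, SAMtools, MACS2 2.1.2 and DESeq2 1.42.0 were used with hg38. Merging of regions, filters, the Tn5 shift and the counted unit (reads, pairs or cut sites) are not given in the sources used here, and all affect levels. Region names were read as 1-based, so a start may be off by 1 base.

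Groups came from the sample titles. Regions were filtered with filterByExpr (119417 left), scaled by TMM and tested with edgeR 4.0.16 (R 4.3.3; robust quasi-likelihood fit, all 9 libraries, 1 term per group). P-values were adjusted by Benjamini-Hochberg over all tested regions, with a threshold of 0.05. CPM values use the TMM-scaled totals of tested regions, and log2 CPM a prior count of 2. Named were the promoter region, the 8 strongest regions, all called regions, the 3 with the smallest p in each comparison, and the 5 most like the promoter. Others were named after their values were seen, as were TBX2, HAND1, YAP1 and the ASO10 difference at PHOX2A. The locus and all gene lists were chosen with earlier results of these data known. Gene names, starts and sequences came from RefSeq (GRCh38.p14); genome sequence outside promoters was not used here.

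On simulated counts for 119417 regions in the ASO2 against NCA comparison, the fit recovered 19.5% of 200 regions changed by 1 on the log2 scale, and 79.4% of the 34 among them whose level exceeded 3 log2 CPM; 0 calls were false. Alternatives were DESeq2 1.42.0, other scalings, no filter, a replicate block, only the groups compared, other windows and leaving out each library. Figures used Python 3.11.15 and matplotlib 3.10.9.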

Additional observations from a re-analysis of the deposited data

Results flagged for a closer look

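The region 118 kb upstream of the HAND2 start differed between the oligonucleotides in the direct test: ASO2 stood above ASO10 by 1.22 on the log2 scale (edgeR adjusted p = 0.000575, all 3 ASO2 libraries above all 3 ASO10 libraries). The difference kept its direction and its side of the threshold in 16 of 16 alternatives, from 0.99 to 1.43 on the log2 scale, with adjusted p-values from 0.000183 to 0.0407. The call against NCA held in the same 16, from 1.08 to 1.33, with adjusted p-values from 0.000123 to 0.0100.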

How the results depend on the processing

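Over 33 comparisons of named regions under each alternative, 481 values kept direction and side of the threshold, 19 lost a call and 27 changed sign. The number of regions called under ASO2 was 1, not 2, with loess offsets, total counts, no filter, a replicate block or only the groups compared. The number called under ASO10 was 0, not 1, with loess offsets or a replicate block. The replicate numbers did not pair the libraries (correlations of same-numbered libraries from -0.036 to 0.013, with 0 of 9 best matched by its own number). A window of 100 kb (18 tested regions) gave 1, 0 and 1 calls for ASO2, ASO10 and ASO2 against ASO10, and one of 500 kb (51 tested) gave 5, 2 and 5. Over all tested regions 5.6%, 1.09% and 3.23% were called, and such small counts are no result about the locus. In fits leaving out 1 library the counts ran from 1 to 2, from 0 to 1 and from 1 to 1. In the same fits the calls over all tested regions ran from 4110 to 6457, from 447 to 1417 and from 2089 to 3981. With all libraries they were 6687, 1297 and 3853. Causes were not tested.

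All 27 sign changes were of differences that passed no threshold. With loess offsets the ASO10 difference became -0.067 at the promoter, -0.016 at 7.93 kb downstream and -0.065 at 236 kb upstream, and SAP30 between the ASOs became 0.0026. With total counts the ASO10 difference became -0.028 at 236 kb and -0.018 at 118 kb upstream. Leaving out 1 library at a time gave these ranges. The promoter ran from -0.27 to 0.042 under ASO2, from -0.10 to 0.19 under ASO10 and from -0.31 to 0.010 between them. Under ASO2, 7.93 kb downstream ran from -0.11 to 0.025, 7.71 kb upstream from -0.14 to 0.053 and SAP30 from -0.052 to 0.084. Under ASO10, 12.8 kb downstream ran from -0.0061 to 0.17, 39.1 kb downstream from -0.34 to 0.0029, 236 kb upstream from -0.15 to 0.15 and 118 kb upstream from -0.20 to 0.24. Between the ASOs, 223 kb upstream ran from -0.052 to 0.44. On simulated counts changed by 1 on the log2 scale, 19.5% of 200 regions were recovered, against 79.4% of the 34 above 3 log2 CPM. Most distal regions here did not reach that level. The simulation made 39 calls against 6687 in the real comparison, so its cut on the unadjusted p was stricter. These rates do not give the power for the regions here.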
